A study of Mus musculus with 12 samples.

Results

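The genes of the mitochondrial ribosomal proteins were followed through hippocampal RNA-seq libraries of aged mice given pyrroloquinoline quinone (PQQ), a redox cofactor that is taken up with food. The members were all genes whose symbol opens with Mrpl or Mrps and a number, without pseudogenes and antisense genes. This gave 78 of the 27833 genes in the table, 49 with an Mrpl and 29 with an Mrps symbol, and all 78 passed the filter on low values (a mean FPKM of at least 0.5 over the libraries). All libraries came from the hippocampus of wild-type (WT) male C57BL/6J mice aged 20 months, treated by oral gavage for 14 days. The CON group received normal saline at 0.2 mL (n = 3), the PQQ-L group received PQQ at 5 mg/kg/day (n = 5) and the PQQ-H group received PQQ at 10 mg/kg/day (n = 4). All mice were aged, so no young reference exists in these comparisons, and the labels do not say whether a library held 1 animal.

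The mitochondrial ribosome (mitoribosome) translates the few proteins encoded in mitochondrial DNA, all of them core subunits of the respiratory chain and the ATP synthase. Its rRNAs are transcribed inside the organelle, whereas its proteins are encoded in the nucleus, made in the cytosol and imported, so both genomes have to supply one particle. It has a large subunit, where peptide bonds are formed, and a small subunit, where the mRNA is decoded. Many of its proteins have a counterpart in bacterial ribosomes and the others exist only in mitochondria. Neurons depend heavily on oxidative phosphorylation, which cannot be assembled without this machine.

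The symbols follow the subunits with a few exceptions. Of the 78 members, 51 belong to the large subunit and 26 to the small subunit, since Mrps30 and Mrps18a are named after the small subunit but sit in the large one. Mrps36 was once counted as a ribosomal protein and is known as a subunit of the oxoglutarate dehydrogenase complex. Among the ribosomal members, 46 have a bacterial counterpart and 31 are particular to mitochondria. Mrpl58 (ICT1) is a peptidyl-tRNA hydrolase that was built into the large subunit and rescues stalled ribosomes.

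Promoters of these genes are known to carry sites of nuclear respiratory factor 1 (NRF-1), of ETS family factors such as NRF-2/GABP, and of YY1. RefSeq promoters of the GRCm38.p6 build, from 250 bases before to 50 bases after the start of transcription, were given for 69 of the 78 members, with 75 promoters in all. The ETS letters CCGGAAG, searched on both strands, were in 34.7% of the member promoters and in 8.86% of all 32851 promoters of that length. The NRF-1 letters GCGCANGCG were in 21.3% of the member promoters against 6.25% of all promoters. The YY1 letters AAGATGGCG were in 10.7% against 1.4%. At least 1 of the 3 motifs was in the promoters of 42 of the 69 genes, and a promoter can hold more than one. None of the motifs contains another, although an ETS match can share its last 3 letters with a YY1 match. A match is only a match of letters.

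The 150 bases before the start are shown for members whose levels are described below, Mrps21 and Mrpl12 as the highest members with an NRF-1 match in that stretch (chr3:95871515-95871664, minus strand, and chr11:120484487-120484636, plus strand). Mrpl58 and Mrpl52 are shown as members with an ETS match there (chr11:115403602-115403751 and chr14:54426759-54426908, both plus strand). Mrpl14 had an NRF-1 match only outside these bases, in the longer promoters searched above, and Mrpl40 had none of the motifs there. The 150 bases shown for both held no match (chr17:45686199-45686348, plus strand, and chr16:18876638-18876787, minus strand). Each is written 5′ to 3′ on the strand of the gene, and capitals mark the motif.
Mrps21: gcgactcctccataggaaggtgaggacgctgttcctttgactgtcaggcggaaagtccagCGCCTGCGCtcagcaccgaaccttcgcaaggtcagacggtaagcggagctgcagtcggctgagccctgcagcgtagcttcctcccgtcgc
Mrpl12: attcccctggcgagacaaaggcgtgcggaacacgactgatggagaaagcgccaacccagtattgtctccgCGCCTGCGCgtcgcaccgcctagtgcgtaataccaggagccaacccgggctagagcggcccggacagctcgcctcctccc
Mrpl58: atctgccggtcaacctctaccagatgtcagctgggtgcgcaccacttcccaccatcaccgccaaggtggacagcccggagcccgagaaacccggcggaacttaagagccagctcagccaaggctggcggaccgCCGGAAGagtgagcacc
Mrpl52: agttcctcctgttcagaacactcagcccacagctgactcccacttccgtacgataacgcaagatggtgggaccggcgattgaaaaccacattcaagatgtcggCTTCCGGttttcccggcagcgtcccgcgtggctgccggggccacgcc
Mrpl14: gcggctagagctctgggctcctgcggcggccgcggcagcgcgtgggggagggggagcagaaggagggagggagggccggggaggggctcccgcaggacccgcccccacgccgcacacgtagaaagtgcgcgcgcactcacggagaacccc
Mrpl40: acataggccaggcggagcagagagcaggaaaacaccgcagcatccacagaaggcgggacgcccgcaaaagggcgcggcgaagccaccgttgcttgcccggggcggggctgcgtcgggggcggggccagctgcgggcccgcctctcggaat

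Levels are given as FPKM, that is, fragments scaled to the length of the gene and to the depth of the library. Levels of different genes can be compared per length only as far as that length is right for the mRNA. The reads on genes ran from 29654553 to 38179496 per library, with a median of 35168171, and the members were covered by 241 to 2645 reads per gene and library. These reads were recovered from the FPKM, and they give the counting precision only. Some libraries stood apart in the markers of neighbouring brain regions. The summed FPKM of 8 striatum markers was 3044 and 1253 in CON 1 and CON 3 and 2292 and 1181 in PQQ-H 1 and PQQ-H 2, and it ran from 34.6 to 149 in the other 8 libraries. The summed FPKM of 8 markers of hippocampal neurons was 32.1 to 82.5 in these 4 libraries and 132 to 356 in the other 8, so the labelled tissue did not carry its markers evenly. The summed FPKM of 10 choroid plexus markers was 1536 to 5439 in CON and 13.5 to 117 in the 9 PQQ libraries, with Kcne2 at 0 in 3 of those and Folr1, Krt8, Otx2 and Slc4a5 at 0 in PQQ-H 4. In bulk tissue, fewer cells of a type and less RNA per cell cannot be told apart.

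All members were expressed, over a 29.7-fold range. The highest mean level over the 12 libraries was that of Mrps21 (69.1 FPKM), a small subunit protein with a bacterial counterpart. It was followed by Mrpl42 at 59.4 FPKM, Mrpl12 at 58.8 FPKM, Mrps18c at 56.4 FPKM and Mrpl33 at 50.3 FPKM. Mrpl12 forms the flexible stalk that brings translation factors to the ribosome, and Mrpl42 is particular to mitochondria. The lowest was Mrpl14 at 2.33 FPKM, a protein at the interface of the subunits, after Mrpl1 (3.56 FPKM), Mrps35 (3.57 FPKM), Mrps10 (3.98 FPKM) and Mrpl4 (4.09 FPKM). The median of the 78 means was 20.7 FPKM, and 63 members had a mean above 10 FPKM. The members are parts of a particle with fixed proportions, and their FPKM were not in those proportions. The gene length behind the FPKM was 4282 to 8452 bases for the 5 lowest members and 466 to 981 bases for the 5 highest. Mrpl14 had 473 to 757 reads per library and Mrps21 had 909 to 1525, so the range of FPKM rests in part on these lengths. Whether they match the mRNAs in this tissue was not tested.

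Ranges over the libraries overlapped between neighbours in this order, and the genes were not compared within each library. Mrpl42 ranged from 50.3 to 74.9 FPKM over the libraries, Mrpl12 from 54.3 to 66.1 FPKM and Mrps18c from 47.7 to 76.3 FPKM, so the ranges of these genes overlapped. At the other end, Mrpl1 ranged from 2.81 to 4.66 FPKM and Mrpl14 from 1.79 to 2.87 FPKM, and these ranges overlapped as well. Over the 12 libraries, the coefficient of variation of a member had a median of 10.7%. It was lowest for Mrps2 (3.81%) and highest for Mrpl52 (25.2%).

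The 3 genes of the S18 family show how differently related members can be expressed. Mrps18a encodes a protein of the large subunit, and Mrps18b and Mrps18c encode proteins of the small subunit. Mrps18a was measured at 50.01, 43.5 and 43.0 FPKM in CON, at 41.1 to 45.6 FPKM in PQQ-L and at 44.8, 53.7, 44.0 and 48.8 FPKM in PQQ-H. Mrps18c was measured at 65.8, 59.6 and 56.5 FPKM in CON, at 49.2 to 56.0 FPKM in PQQ-L and at 48.0, 76.3, 47.7 and 63.8 FPKM in PQQ-H. Mrps18b was measured at 7.33, 7.29 and 7.79 FPKM in CON, at 6.00 to 7.75 FPKM in PQQ-L and at 7.80, 5.48, 6.91 and 8.55 FPKM in PQQ-H. In every library Mrps18b was the lowest of the 3 genes, and only Mrps18c kept its CON and PQQ-L libraries apart.

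Summed over the 78 members, the FPKM was 2036, 1715 and 1918 in the CON libraries. In PQQ-L the sums were 1614, 1771, 1645, 1660 and 1646, and in PQQ-H they were 1789, 1979, 1717 and 1902. The mean sum of the CON libraries was 1890 ± 163 (SD, n = 3). PQQ-L had a mean sum of 1667 ± 60.5 (SD, n = 5), and PQQ-H had one of 1847 ± 116 (SD, n = 4). CON 2 lay within the PQQ-L range, and the other CON libraries lay above all 5 PQQ-L libraries. As a share of all FPKM in the library, the members took 0.498 to 0.508% in CON, 0.468 to 0.504% in PQQ-L and 0.481 to 0.521% in PQQ-H, and these ranges overlapped. CON 2 and PQQ-L 2 therefore bridged the groups on the respective scales.

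**Figure D1:**
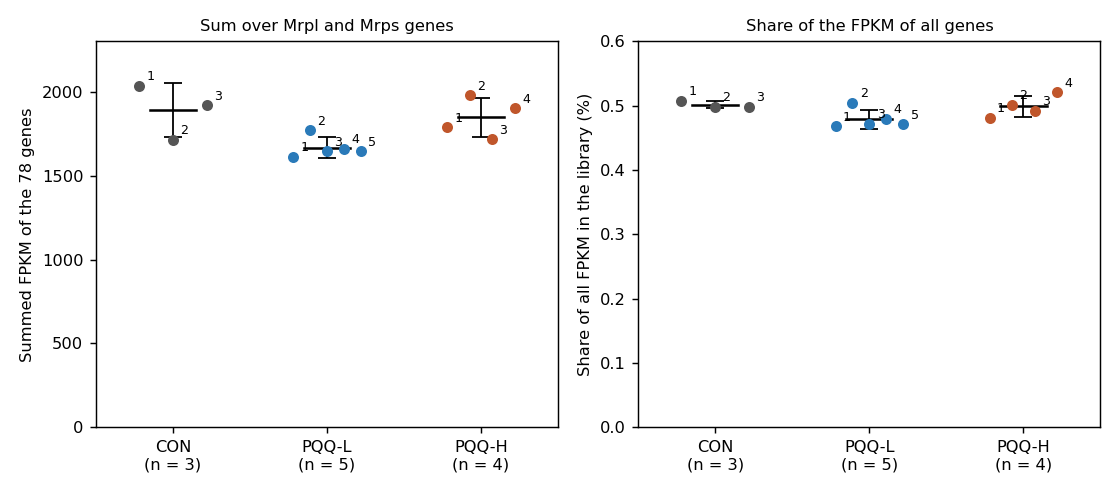
Summed FPKM of the 78 members (left) and their share of all FPKM in the library in percent (right) for the 12 libraries. Points are libraries with their replicate numbers, horizontal lines are group means and bars are SD; PQQ-L lies lowest on average, at 1667 ± 60.5 FPKM, and CON 2 lies within its range.

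The first comparison asked whether the lower PQQ dose changed these genes in the aged hippocampus. Most members had a lower mean in PQQ-L than in CON, by a small amount, and none passed the test. The log2 fold change (log2FC, here on log2(FPKM + 0.1)) was below 0 for 72 of the 78 members, with a median of -0.15 against -0.03 for all 13796 genes tested. The median was above 0 (0.01) once the trend of the values with gene length was removed. The values ran from -0.43 to 0.07. At the thresholds of the study (|log2FC| > 1 and adjusted p < 0.05) 0 members were called, where 0.471% of all genes were. The lowest adjusted p of a member was 0.113.

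At an unadjusted p below 0.05, 19 members were lower and 0 were higher. Over all genes, 11.6% were lower and 8.92% were higher at that level. These 19 were 15 of the 51 members of the large subunit and 4 of the 26 of the small subunit. The medians of both subunits were alike, with -0.14 for the large and -0.15 for the small subunit. Members with a bacterial counterpart had a median of -0.17 and mitochondria-specific members one of -0.13. The 5 PQQ-L libraries did not overlap the 3 CON libraries and were lower for 10 members (Mrpl14, Mrpl28, Mrpl40, Mrpl42, Mrpl49, Mrpl51, Mrpl58, Mrps18c, Mrps30 and Mrps31), and 0 members were higher without overlap. Over all genes, the libraries were lower without overlap for 7.66% and higher for 2.96%.

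These counts depended on which control libraries were in the fit. Without CON 2, the library lowest in the members among the controls, 35 members were lower at an unadjusted p below 0.05, 23 had an adjusted p below 0.05, and the median was -0.20. In that fit 21.4% of all genes were lower and 21.8% were higher at an unadjusted p below 0.05, and 23.4% had an adjusted p below 0.05. Mrpl14, Mrpl40, Mrpl58, Mrps21 and Mrps28 were among the 23. The controls left in that fit, CON 1 and CON 3, were both high in striatum markers (summed FPKM of 3044 and 1253). The PQQ-L libraries were low in them (35.8 to 149), so region and dose cannot be told apart in that fit. Without CON 1, 5 members were lower, against 5.32% of all genes, and the median was -0.10. Without CON 3, 10 members were lower, against 7.27% of all genes. Without PQQ-L 1 or PQQ-L 4, 12 and 10 members were lower, against 9.85% and 8.53% of all genes.

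Mrpl14 had the most negative log2FC of the members in PQQ-L. It was measured at 2.83, 2.68 and 2.68 FPKM in CON and at 2.0, 2.10, 2.07, 1.79 and 2.03 FPKM in PQQ-L. All 5 PQQ-L libraries were lower than all 3 CON libraries. The log2FC was -0.43 with an SE of 0.11 (adjusted p = 0.142). Mrpl14 shares exon bases with Tmem63b on the other strand, and whether the reads were counted by strand is not given in the sources used here.

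Mrps28, a small subunit protein with a bacterial counterpart, was measured at 20.2, 12.0 and 20.4 FPKM in CON and at 13.1, 14.8, 12.4, 9.49 and 15.1 FPKM in PQQ-L. CON 2 lay below 4 of the 5 PQQ-L libraries. Its log2FC was -0.41 with an SE of 0.19 (adjusted p = 0.245). Mrpl40, a mitochondria-specific protein of the large subunit, was measured at 20.1, 14.9 and 19.5 FPKM in CON and at 14.5, 14.1, 14.4, 13.1 and 14.5 FPKM in PQQ-L. The groups did not overlap, but CON 2 lay close to the PQQ-L libraries. The log2FC of Mrpl40 was -0.35 with an SE of 0.14 (adjusted p = 0.234).

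Mrps21, the member with the highest level, was measured at 84.2, 63.9 and 78.5 FPKM in CON and at 58.0, 64.9, 60.0, 60.5 and 52.2 FPKM in PQQ-L. PQQ-L 2 lay above CON 2, so the groups overlapped. Its log2FC was -0.35 with an SE of 0.13 (adjusted p = 0.227). Mrpl52, a mitochondria-specific protein of the large subunit, was measured at 57.4, 33.6 and 49.2 FPKM in CON and at 33.9, 44.1, 35.4, 37.7 and 31.4 FPKM in PQQ-L. CON 2 was lower than 4 of the 5 PQQ-L libraries. Its log2FC was -0.33 with an SE of 0.19 (adjusted p = 0.291).

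The second comparison asked the same of the higher dose. In PQQ-H, the members stood close to CON, with a median log2FC of -0.03 against -0.03 for all genes and with 47 members below 0 and 31 above. The median was 0.04 after median-of-ratios scaling and 0.02 with voom on the recovered reads, and that of all genes moved with it to 0.04 and 0.02. It was 0.04 with the GC or the length trend removed, where all genes had 0.02 in both. None of the members was called, where 0.819% of all genes were. At an unadjusted p below 0.05, 3 members (Mrpl58, Mrps6 and Mrpl49) were lower and 0 were higher, against 7.88% and 1.85% of all genes. PQQ-H did not overlap CON and was lower for 2 members, Mrpl58 and Mrpl49, and higher for 0, against 5.72% and 1.36% of all genes. Without CON 2, 9 members were lower at an unadjusted p below 0.05, against 11.1% of all genes. Without CON 3 or PQQ-H 3 there was 1, against 6.04% and 5.39% of all genes.

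**Figure D2:**
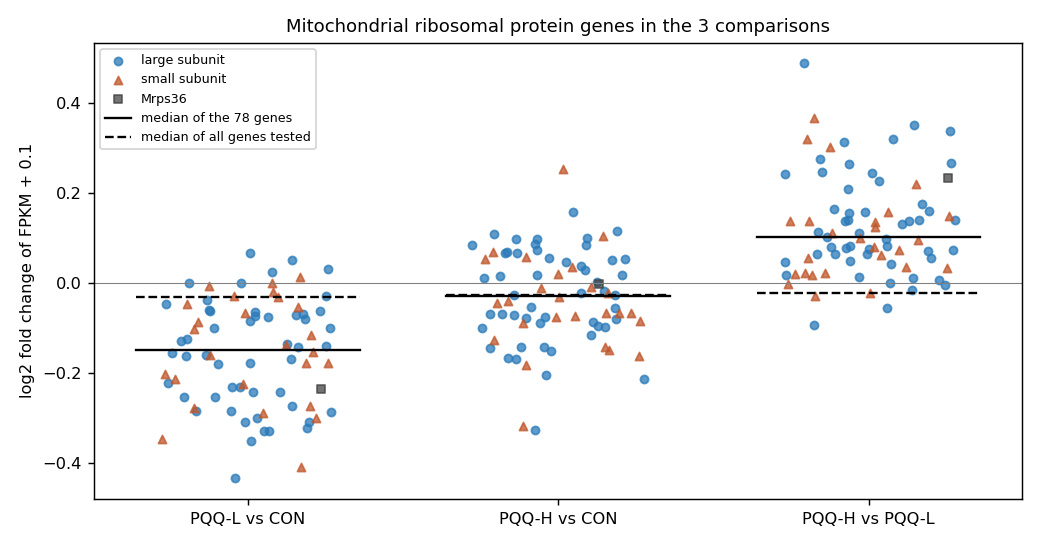
log2 fold change of each of the 78 members in the 3 comparisons (horizontal spread within a comparison carries no value). Solid lines are the medians of the members (-0.15, -0.03 and 0.10) and dashed lines those of all genes tested (-0.03, -0.03 and -0.02).

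Mrpl58, the rescue factor described above, came nearest to the test's threshold. It was measured at 17.5, 16.9 and 16.6 FPKM in CON. In PQQ-L it was at 15.4, 14.0, 13.3, 13.9 and 13.8 FPKM, and in PQQ-H at 12.6, 14.1, 13.9 and 13.7 FPKM. All 9 PQQ libraries were lower than all 3 CON libraries, while the PQQ groups overlapped each other. The mean of CON was 17.0 ± 0.443 FPKM (SD, n = 3). PQQ-L had a mean of 14.1 ± 0.772 FPKM (SD, n = 5), and PQQ-H had one of 13.5 ± 0.679 FPKM (SD, n = 4). The log2FC was -0.27 in PQQ-L (SE 0.067, adjusted p = 0.113) and -0.33 in PQQ-H (SE 0.070, adjusted p = 0.0520), and both rest on the same CON libraries. Over the 28 alternatives its adjusted p in PQQ-H ran from 0.0449 to 0.661, and 2 of them were below 0.05 (0.0474 with a pseudocount of 1 and 0.0449 with every gene above 0 tested). In PQQ-L the adjusted p ran from 0.0356 (without CON 2) to 0.978, the one value below 0.05 being that without CON 2. With the length trend removed, the log2FC of Mrpl58 was -0.19 at the lower and -0.26 at the higher dose (adjusted p = 0.292 and 0.193). Ict1os, on the other strand, shares exon bases with Mrpl58.

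Mrpl49, a mitochondria-specific protein of the large subunit, was at 27.4, 25.4 and 25.4 FPKM in CON. It was at 22, 23.8, 24.6, 23.4 and 23.2 FPKM in PQQ-L and at 23.4, 22.4, 24.1 and 24.6 FPKM in PQQ-H, below every CON library in both groups. It was chosen after its values were seen. Mrps6, which encodes a small subunit protein with a bacterial counterpart, was at 26.9, 25.3 and 32.9 FPKM in CON and at 21.3, 25.4, 19.9 and 24.0 FPKM in PQQ-H. PQQ-H 2 lay just above CON 2, and the log2FC in PQQ-H was -0.32 with an SE of 0.13 (adjusted p = 0.436). Mrps6 shares exon bases with other genes on its own strand.

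Mrps33 and Mrpl34 were the other members with the largest |log2FC| in PQQ-H, together with Mrpl40. Mrps33, a mitochondria-specific protein of the small subunit, was at 32.4, 23.5 and 33.2 FPKM in CON and at 35.4, 36, 32.7 and 36.1 FPKM in PQQ-H. The groups overlapped narrowly, since 1 of the 4 PQQ-H libraries lay below CON 3, and the log2FC was 0.25 with an SE of 0.12 (adjusted p = 0.522). Mrpl40 was at 17.6, 17.8, 11.7 and 16 FPKM in PQQ-H and gave a log2FC of -0.21 with an SE of 0.15 (adjusted p = 0.709). Mrpl34, which encodes a large subunit protein with a bacterial counterpart, was at 34.1, 24.7 and 33.6 FPKM in CON and at 25.7, 30.1, 23.5 and 26.9 FPKM in PQQ-H. The groups overlapped for both genes, and Mrpl34 had a log2FC of -0.20 with an SE of 0.12 (adjusted p = 0.645).

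**Figure D3:**
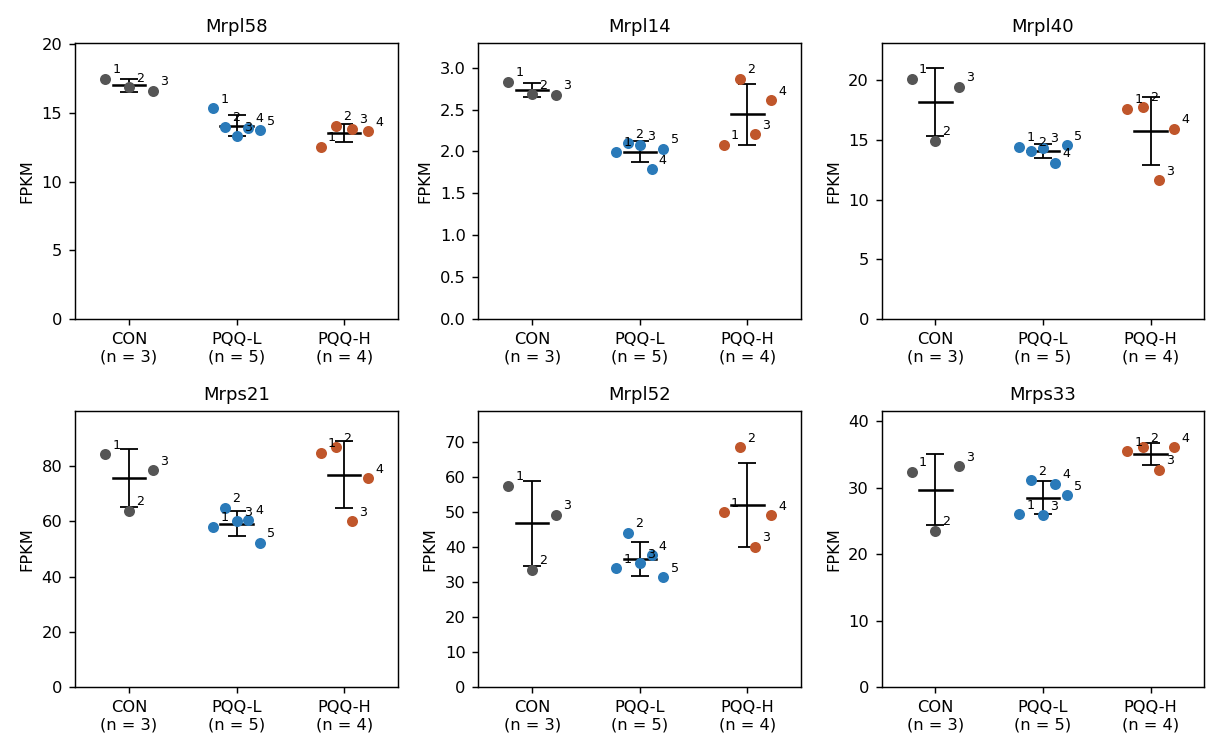
FPKM of 6 members in the 12 libraries, with the replicate number at each point, the group mean as a line and the SD as a bar. Mrpl58 lies lower in all 9 PQQ libraries than in CON, Mrpl14 lies lower in all 5 PQQ-L libraries, and CON 2 lies below CON 1 and CON 3 for Mrpl40, Mrps21, Mrpl52 and Mrps33.

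The doses were compared with each other in PQQ-H vs PQQ-L, which shares the PQQ-L libraries with the first comparison and is not independent of it. Most members had a higher mean at the higher dose, with 70 of 78 above 0 and a median log2FC of 0.10 against -0.02 for all genes. No member was called, and neither was any other gene (0%). At an unadjusted p below 0.05, 15 members were higher and 0 were lower, against 3.55% and 4.6% of all genes. The adjusted p of these 15 was 0.580 for each. PQQ-H did not overlap PQQ-L and was higher for 4 members (Mrpl30, Mrpl55, Mrps33 and Mrps36) and lower for 0, against 1.42% and 3.33% of all genes. Without PQQ-H 2 or PQQ-L 5, 6 and 9 members were higher at an unadjusted p below 0.05, against 2.14% and 2.09% of all genes.

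Mrpl52 had the largest difference between the doses. It was at 49.9, 68.5, 40.1 and 49.0 FPKM in PQQ-H, and only PQQ-H 3 lay within the PQQ-L range given above. The log2FC was 0.49 with an SE of 0.18 (adjusted p = 0.580). Mrps21 was at 84.7, 86.8, 60.1 and 75.5 FPKM in PQQ-H, again with PQQ-H 3 within the PQQ-L range, and gave a log2FC of 0.37 with an SE of 0.12. Mrpl47, which has a bacterial counterpart in the large subunit, was at 9.47, 14.2, 10.5, 8.80 and 10.7 FPKM in PQQ-L and at 13.8, 13.4, 12.9 and 14.1 FPKM in PQQ-H. PQQ-L 2 alone was as high as the PQQ-H libraries, and the log2FC was 0.35 with an SE of 0.13. Mrpl33 was at 40.0, 50.2, 43.3, 42.7 and 42.1 FPKM in PQQ-L and at 51.1, 68.4, 48.7 and 53.8 FPKM in PQQ-H, with PQQ-H 3 below PQQ-L 2, and its log2FC was 0.34 with an SE of 0.13. Mrpl24, a large subunit protein with a bacterial counterpart, was at 15.2, 15.1, 13.8, 14.7 and 12.5 FPKM in PQQ-L and at 20.8, 19.6, 14.1 and 17.4 FPKM in PQQ-H. Its log2FC was 0.32 with an SE of 0.13, and the groups overlapped through PQQ-H 3.

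The members were mostly short genes, and short genes as a class had differences of the same sign. The length behind the FPKM had a median of 1506 bases for the members (412 to 8707 bases) and 3595 bases for all genes tested, and 66 of the 78 members were below the latter. In PQQ-L vs CON, the median log2FC of all genes tested went from -0.26 in the shortest length decile to 0.22 in the longest decile. The 34 members in the shortest decile had a median of -0.22, and the 15 members in the next decile had one of -0.14 where all genes of that length had -0.16. Among the 29 members longer than 1816 bases, the median was -0.09 against 0.02 for all longer genes, and 24 were below 0. These sets were not matched in length, since the longest decile held 0 members. In decile 3, 7 members had a median of -0.10 where all genes had -0.11. In decile 4, 7 members had -0.13 where all genes had -0.09. In decile 9, 5 members had -0.10 where all genes had 0.13. With the length trend removed from each library, 4 members were lower and 4 higher at an unadjusted p below 0.05 in PQQ-L, against 8.33% and 8.51% of all genes. In PQQ-H these counts were 1 and 5, against 6.29% and 4.2% of all genes.

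Gradients with length were also present in the other comparisons. In PQQ-H vs CON, the shortest and longest deciles of all genes had medians of -0.07 and 0.04, and the members in the shortest decile had one of -0.04. In PQQ-H vs PQQ-L, these deciles had medians of 0.17 and -0.17, and the members in the shortest decile had one of 0.14. With the length trend removed, the median of the members between the doses was 0.02. At an unadjusted p below 0.05, 11 members were then higher, against 3.57% of all genes. Under that setting the log2FC between the doses was 0.24 for Mrpl52, 0.14 for Mrps21, 0.19 for Mrpl47 and 0.10 for Mrpl33. Mrpl14 is one of the longest members (7525 bases), and its log2FC in PQQ-L was -0.55 with the length trend removed. Mrps21, at 510 bases, had a log2FC of -0.02 in PQQ-L under that setting, and Mrpl52, at 412 bases, had one of 0.03. At the same dose Mrps28 had one of -0.13 and Mrpl40 one of -0.19. At the higher dose Mrpl40 had one of -0.13 and Mrpl34 one of -0.10.

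**Figure D4:**
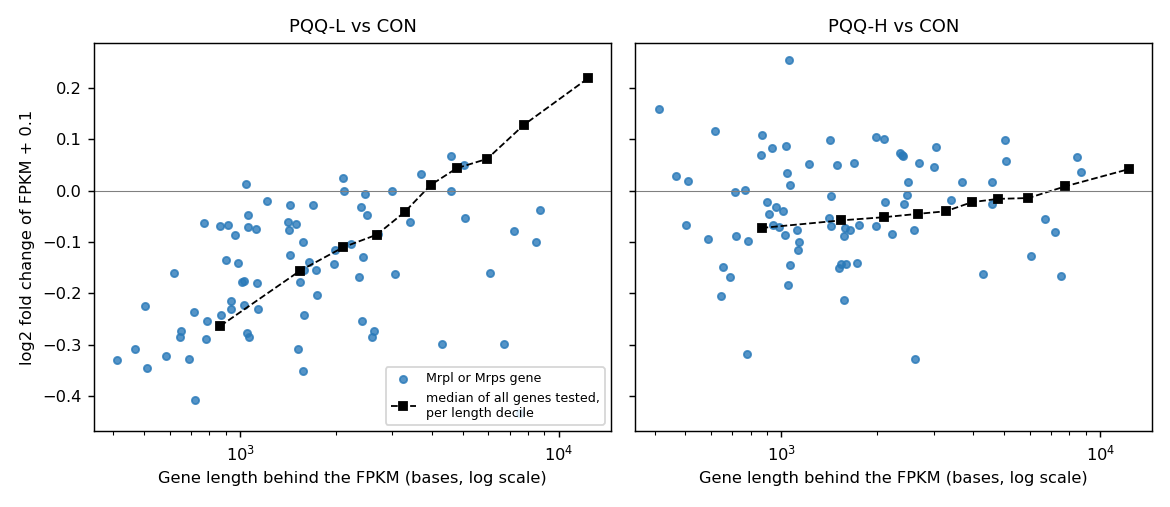
log2 fold change of the 78 members against the gene length behind the FPKM (bases, log scale), for PQQ-L vs CON (left) and PQQ-H vs CON (right). Black squares are medians of all genes tested per length decile, drawn at the median length of that decile; on the left they climb from -0.26 to 0.22, and the 34 members in the shortest decile have a median of -0.22.

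The length trend differed between libraries of the same group. Relative to the mean of the 12 libraries, the median of the shortest decile of genes stood at 0.31, -0.05 and 0.19 (log2) in CON 1 to 3. The median deviation of the members was 0.18, -0.04 and 0.10 in the same libraries. In PQQ-L, short genes stood at -0.15 to -0.07 and the members at -0.12 to -0.01. In PQQ-H, short genes stood at 0.01, 0.22, -0.13 and 0.07 and the members at -0.01, 0.08, -0.03 and 0.10. Libraries high in short genes were thus also high in the members, 34 of which belong to those genes. The part of the length trend in the difference of single members was not tested beyond the values above.

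**Figure D5:**
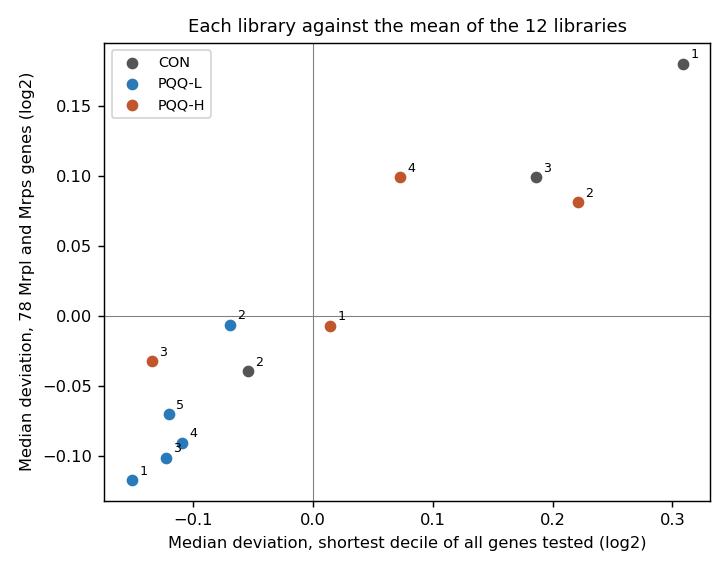
Median deviation of the 78 members (vertical, log2) against that of the shortest decile of all genes tested (horizontal, log2) in the 12 libraries, each relative to the mean of all libraries. CON 1 lies at 0.31 and 0.18, CON 2 lies at -0.05 and -0.04, within the PQQ-L range on the vertical axis only, and the members are partly among the genes on the horizontal axis.

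Markers of other regions went with these values in some libraries only. CON 1, CON 3 and PQQ-H 2, which were high in the striatum markers, were 3 of the 4 libraries in which more than 50 of the 78 members exceeded their own mean (69, 56 and 53 members). The other was PQQ-H 4 (73 members), which was low in these markers, while PQQ-H 1 was high in them and had 38 members above their mean. The 8 libraries low in striatum markers leave CON 2 as the one control, which is assumed to vary like the others. With these 8 libraries alone, the median in PQQ-L was -0.04 against -0.03 for all genes. In PQQ-H vs PQQ-L, 13 members were higher at an unadjusted p below 0.05 in these libraries, against 3.91% of all genes, and the median was 0.11. The choroid plexus markers separated CON from both PQQ groups and cannot be told apart from the treatment.

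The other parts of the translation machinery were read from lists of genes known for each step. Among 5 mitoribosomal proteins under other symbols, none was called in any comparison. Aurkaip1, of the small subunit, was at 51.6, 41.8 and 49.1 FPKM in CON and at 37.8, 43.7, 40.5, 37.8 and 38.8 FPKM in PQQ-L, with a log2FC of -0.25 (adjusted p = 0.224). Gadd45gip1, of the large subunit, gave a log2FC of -0.19 and Chchd1, of the small subunit, one of -0.15. Ptcd3 (small subunit) gave 0.16 and Dap3, a GTP-binding protein of the small subunit, had a mean of 14.9 FPKM in both CON and PQQ-L. With the length trend removed, Aurkaip1 had a log2FC of -0.07, Gadd45gip1 one of -0.05 and Chchd1 one of 0.16.

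None of the 13 factors of initiation, elongation, release and recycling was called. The largest |log2FC| in PQQ-L were 0.25 for Guf1, a GTPase related to bacterial LepA, and 0.17 for Mtif2, the initiation factor that brings the first tRNA. The median of the list in PQQ-L was -0.06, and in PQQ-H it was 0.01. Of the 20 mitochondrial aminoacyl-tRNA synthetases, which charge tRNAs with amino acids, none was called and the median in PQQ-L was 0.01. Fars2, the phenylalanine enzyme, was at 1.95, 1.56 and 2.17 FPKM in CON and at 1.13, 1.31, 1.3, 1.22 and 1.06 FPKM in PQQ-L. The groups did not overlap, and the log2FC was -0.60 with an SE of 0.15 (adjusted p = 0.116). Lars2, the leucine enzyme, was at 195, 3.89 and 56.7 FPKM in CON and at 43.6, 35.0, 36.1, 54.2 and 56.1 FPKM in PQQ-L. Its log2FC of 0.32 (SE 0.97) rested on CON 2, the lowest library, and was -1.25 without it.

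Of the 24 genes of mitoribosome assembly and rRNA modification, none was called and 19 were below 0 in PQQ-L, with a median of -0.09. Over all 13796 genes tested, 7430 were below 0 in PQQ-L, with a median of -0.03. Mpv17l2, an inner membrane protein of ribosome assembly, was at 19.0, 15.9 and 16.9 FPKM in CON. It was at 12.1, 12.3, 12.7, 12.4 and 10.8 FPKM in PQQ-L and at 12.6, 14.4, 9.80 and 12.3 FPKM in PQQ-H, so both PQQ groups lay below every CON library. Its log2FC in PQQ-L was -0.51 with an SE of 0.11 (adjusted p = 0.0822), and it was -0.30 with the length trend removed. Its adjusted p ran from 0.0276 (without CON 2) to 0.978 over the 28 alternatives, with 3 below 0.05. Eral1, a chaperone of the small rRNA, gave -0.21 in PQQ-L (adjusted p = 0.247), and -0.08 with the length trend removed.

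The 13 mRNAs that the mitoribosome translates were tested under their names in the table, and the mitochondrial rRNAs were not analysed here. None was called in any comparison. In PQQ-L 9 of the 13 were below 0, with a median of -0.04, where 7430 of all 13796 genes were below 0. In PQQ-H all 13 were above 0, where 6126 of all genes were. Their median was 0.19, and the 78 Mrpl and Mrps members had -0.03. The values in PQQ-H ran from 0.001 for COX3 to 1.28 for ATP8. CYTB was at 12189, 7597 and 11328 FPKM in CON, with CON 2 lowest. In PQQ-H it was at 11657, 11680, 9199 and 9445 FPKM. For ND3, described next, all PQQ-H libraries (145 to 173 FPKM) lay above CON. Whether all 13 stay above 0 without CON 2 was not tested. ND3, a subunit of complex I, was at 119, 114 and 116 FPKM in CON and at 123, 111, 159, 136 and 153 FPKM in PQQ-L. PQQ-L 2 lay below the CON libraries and the other PQQ-L libraries above them, and the log2FC was 0.22 with an SE of 0.11 (adjusted p = 0.261). It was 0.59 with the length trend removed. ATP8, a subunit of the ATP synthase, was at 9.66, 12.7 and 9.81 FPKM in CON and ran from 3.59 to 48.3 FPKM in PQQ-L, with a log2FC of 0.61 and an SE of 0.81.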

How the data were processed

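Total RNA was sequenced by the authors on a NovaSeq instrument. Per the study's methods, reads were filtered by fastp, aligned by HISAT2 and counted by HTSeq-count. The submitters' processing notes name mm39, whereas the annotation, the strand setting and program versions are not given in the sources used here. The deposited values are FPKM computed by the authors. Whole reads were recovered for 100% of the 25563 genes above 0 in at least 2 libraries (tolerance 0.02 reads, or 0.001 for genes above 0 in 2 or 3 libraries). No pair of libraries within a group was a duplicate (chi-square of at least 17.42 per degree of freedom).

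Differences were tested by limma 3.58.1 (R 4.3.3) on log2(FPKM + 0.1), moderated with a mean-variance trend, in a single fit of the 12 libraries over 13796 genes whose mean FPKM was 0.5 or more, with Benjamini-Hochberg adjustment. This scale understates fold changes of low genes. Tables were made with Python 3.11.15. The p-values measure the spread between libraries, which may in part be technical. Fits were tested on simulated data.

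The members and lists were chosen with earlier results of these data known. Members were named by the 5 largest |log2FC| per comparison, an adjusted p below 0.05, the 5 highest and 5 lowest levels, and the S18 family. For the pathway lists these were the 5 mitoribosomal proteins and the 2 genes per list with the largest |log2FC| in PQQ-L. Mrpl58 is also given in PQQ-L. Alternatives changed the pseudocount, filter, scaling, trend, groups or libraries in the fit, used voom, the first letter of the library names, or a replicate block, removed the length or GC trend, or left out each library. One more, the libraries low in striatum markers (summed FPKM below 1000), was chosen after seeing the data. In GENCODE M21, 28 members share exon bases with a gene on the other strand and 8 with one on their own strand.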

Additional observations from a re-analysis of the deposited data

Results flagged for a closer look

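Of 70 groups of 4 or 5 libraries tested for a library far from the others, over the summed FPKM and the genes named, 1 stood out. Mrpl12 was at 61.2 FPKM in PQQ-L 2, where the other 4 PQQ-L libraries lay between 54.3 and 56.1 FPKM. The gap to the nearest library was 0.738 of the whole range, over a critical value of 0.71. Chance gives such a gap in about 1 of 20 groups. PQQ-L 2 also had the highest summed FPKM of the members in its group (1771).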

How the results depend on the processing

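No member was called under any of the 28 alternatives. In PQQ-L vs CON, 19 members were lower at an unadjusted p below 0.05. That count was 10 with median-of-ratios scaling (8.88% of all genes), 6 with TPM (6.52%), 12 with voom (9.87%) and 5 with the replicate block (5.41%). It was 1 with libraries named L alone (3.68%) and 4 with the length trend removed (8.33%). With single libraries left out it ran from 5 (5.32% of all genes, without CON 1) to 35 (21.4%, without CON 2). The count of higher members, 0, was 4 with the length trend removed (8.51% of all genes). The median was -0.039 with TPM, where that of all genes moved from -0.03 to 0.08, so that the members differed from all genes by -0.12 on both scales. It was 0.014 with the length trend removed, -0.042 with libraries low in striatum markers, and -0.20 to -0.10 with single libraries left out. In PQQ-H vs CON, the count of lower members, 3, was 1 with median-of-ratios scaling, voom, the replicate block, or the length or GC trend removed. Under these settings 5.43 to 6.29% of all genes were lower. With libraries left out it ran from 1 (6.04% of all genes without CON 3, 5.39% without PQQ-H 3) to 9 (11.1%, without CON 2). The count of higher members, 0, was 2 with median-of-ratios scaling (4.49% of all genes) or the GC trend removed (4.08%). It was 1 with TPM (1.36%), quantile normalization (4.64%) or voom (3.6%), and 5 with the length trend removed (4.2%). With libraries left out it was 0 to 2, the 2 being without CON 1 (0.986%). The median was 0.042 with the length trend removed, 0.063 with libraries low in striatum markers, and -0.07 to 0.01 with libraries left out. In PQQ-H vs PQQ-L, the count of higher members, 15, was 8 with TPM (1.59% of all genes), 1 with the replicate block (1.51%) and 2 with libraries named L (1.07%). With libraries left out it ran from 6 (2.14%, without PQQ-H 2) to 21 (8.18%, without PQQ-H 3). The count of lower members, 0, was 1 with libraries named L (1.87%). The median was 0.015 with TPM, 0.021 with the length trend removed, and 0.08 to 0.12 with libraries left out.

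Of 810 values of 29 log2FC of single genes, 789 kept their direction and side of the thresholds. In PQQ-L vs CON, Mrps28 was 0.094 with libraries low in striatum markers, and Mrpl52 was 0.026 with the length trend removed and 0.11 with libraries low in striatum markers. Dap3, near 0, was 0.041 with median-of-ratios scaling, 0.11 with TPM, 0.022 with quantile normalization, 0.023 with voom, 0.093 with libraries named L, 0.081 with the GC trend removed, and -0.032 to 0.031 with single libraries left out. Ptcd3 was -0.013 with the GC trend removed and -0.041 with libraries low in striatum markers. Chchd1 was 0.0059 with libraries named L, 0.16 with the length trend removed and 0.21 with libraries low in striatum markers, where Mtif2 was -0.021. Lars2 ran from -1.25 (without CON 2) to 1.55 (without CON 1). In PQQ-H vs CON, Mrpl34 was 0.023 with libraries low in striatum markers. Causes were not tested. Same-numbered libraries did not deviate together throughout (correlations of -0.62 to 0.72). PQQ-L 1 and PQQ-H 1 each correlated best with CON 1 among the controls (0.22 and 0.72), and the other libraries did not correlate best with their own number. CON 1 and PQQ-H 1 were both high in striatum markers. The check showed no pairing by number across the libraries and cannot exclude one. Depth was 241 to 2645 reads per member and library.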
